A study of Sus scrofa with 85 samples.

Results

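The comparison covered here set non-infarcted heart muscle against blood at day 14 after an experimental myocardial infarction in swine. Micro-EMB are very small catheter biopsies of the left ventricular wall, and RNA-seq gave 1 library for each biopsy or blood sample. Members were chosen by label and by 2 criteria that use no gene's difference between the tissues: a total of at least 1000000 counts, and 7 to 60% of the counts in the 10 most counted genes of the library. These kept 11 of 85 libraries, namely 6 of 6 lateral micro-EMB libraries and 5 of 6 blood libraries of day 14. All 3 animals were female mixed-breed farm pigs of Yorkshire and Swedish stock. Their ages were not stated in the sources used here. Every animal had a balloon occlusion of the distal left anterior descending artery and then reperfusion, so no group came from an animal without infarction. The lateral biopsies were aimed under fluoroscopy at muscle away from the occluded branch, and the exact site of a biopsy was not recorded in the labels. Lateral libraries 1 and 2 came from swine 1644, 3 and 6 from swine 1640, and 4 and 5 from swine 5385. Blood libraries 1 and 2 came from swine 5385, 4 and 5 from swine 1640, and 6 from swine 1644. Blood libraries 1 and 2 also had library numbers of another series than 4, 5 and 6. In blood, swine 5385 and this series therefore cannot be told apart. Lateral libraries 1, 2, 3 and 4 had numbers of the series of blood libraries 1 and 2, and lateral libraries 5 and 6 of the other. Libraries of the same animal are not independent animals, so p-values over libraries measure the spread between libraries and not only between animals.

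Ventricular muscle is built from cardiomyocytes, whose sarcomeres of myosin and actin contract when calcium is released from the sarcoplasmic reticulum, and which take most of their energy from fatty acids burned in mitochondria. Fibroblasts, endothelial cells, mural cells of vessels and resident macrophages fill the space between them. Whole blood RNA comes from leukocytes, platelets and young red cells that still carry globin transcripts. In bulk libraries, fewer cells of a type and less RNA of a gene in each cell cannot be told apart.

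The 11 libraries held between 3661584 and 11156139 counts on 31907 Ensembl genes. The blood library left out, replicate 3 of swine 1644, had 1.4% of its counts in its 10 most counted genes. Lateral libraries 2 and 3 stood apart from the rest. They had 22076 and 20949 genes at a CPM (counts per 1000000 counts of the library) of 1 or more, against 13975 to 18435 in the other 9 libraries, and their median correlation with the other lateral libraries was 0.80 and 0.86, against 0.93 to 0.96 for the other 4. The cause was not tested, and results that rest on these 2 libraries are given with and without them. Levels below are normalized CPM, with library sizes scaled by TMM (trimmed mean of M-values). Differences are log2 fold changes of lateral minus blood with their standard error (SE), from edgeR's quasi-likelihood test. A gene was called higher in a tissue at a Benjamini-Hochberg adjusted p of 0.05 or less over all genes tested.

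Of 19722 genes tested, 3083 (15.6%) were called higher in lateral micro-EMB and 2534 (12.8%) higher in blood. The median log2 difference over all genes was 0.25, and it was 0.53, 0.35 and 0.41 when libraries were scaled by DESeq2 size factors, by upper quartiles or by totals only. Lists of genes are therefore read against 0.25. Lateral micro-EMB held 54.9% of all calls under TMM and 43.3% under totals only. Without lateral libraries 2 and 3, the counts were 3855 and 3309, and they included 2912 of the genes called higher in lateral micro-EMB and 2462 of those called higher in blood. Every lateral library lay above every blood library for 11.7% of the genes tested, and every blood library above every lateral library for 11.9%. Of the calls, 20.7% in lateral micro-EMB and 17.8% in blood were genes with no symbol in the tables used.

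**Figure D1:**
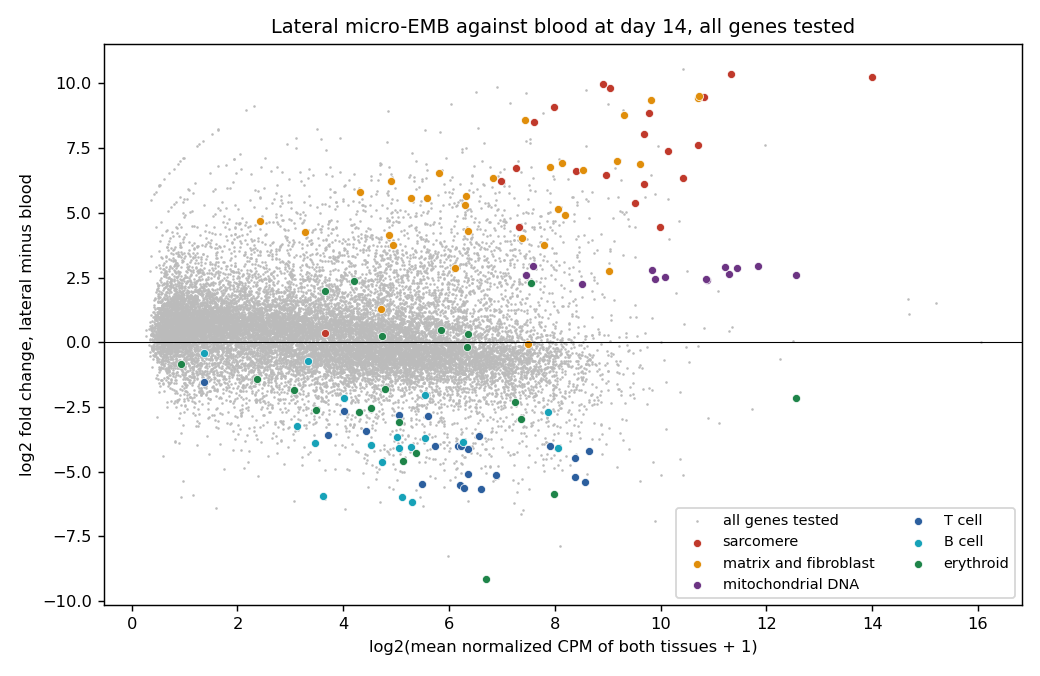
Each grey point is 1 of 19722 genes tested, with its mean level in both tissues on the x axis, as log2 of normalized CPM plus 1, and the log2 fold change of lateral minus blood on the y axis. Coloured points are 6 gene lists: sarcomere and matrix genes lie high above 0, T cell and B cell genes below it, and the 13 mitochondrial DNA genes sit between 2.26 and 2.96.

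Contractile genes had the largest median difference of the 25 lists. Of 30 sarcomere genes listed, 24 had an identifier and 21 were tested, and 20 of these were called higher in lateral micro-EMB, with a median log2 difference of 7.38. TNNT2, cardiac troponin T of the thin filament, ranged from 888 to 10200 normalized CPM in lateral libraries (median 4370), and the blood libraries were at 4.95, 4.44, 3.81, 3.98 and 2.55. Its log2 difference was 10.37 (SE 0.87, adjusted p = 3.33e-07). MYH6, annotated as the alpha cardiac myosin heavy chain, had the same wide separation. It ranged from 6040 to 64400 in lateral libraries (median 24900), against 45.4, 27.2, 17.1, 25.7 and 18.9 in blood, a log2 difference of 10.24 (SE 1.01, adjusted p = 1.38e-06). The near-identical beta chain had no symbol in the table, so which of these myosins the counts belong to is uncertain. ACTA1, the skeletal form of alpha-actin, and MYBPC3, myosin binding protein C, differed by 9.48 (SE 0.83, adjusted p = 4.75e-07) and 7.63 (SE 0.82, adjusted p = 2.71e-06). In all 4 genes the lowest lateral library was library 2 and the next lowest was library 3, and no lateral library overlapped blood. MYL4, the atrial light chain that red cell precursors also make, was the listed gene not called. Its lateral libraries ran from 0.521 to 48.1 and blood was at 2.48, 0, 26, 21.1 and 0.443, so the tissues overlapped (log2 difference 0.36, SE 1.04, adjusted p = 0.835).

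Genes of calcium handling and excitation differed less than sarcomere genes, and in the same direction. Of 23 tested, 19 were called higher in lateral micro-EMB (median 3.78) and none higher in blood. RYR2, the channel that releases calcium from the sarcoplasmic reticulum, was at 1110 to 14700 in lateral libraries (median 7490) and at 53.4, 11.3, 39.4, 74.1 and 25.7 in blood. The log2 difference was 7.61 (SE 0.87, adjusted p = 4.84e-06). The 2 highest lateral values were those of swine 5385, at 14000 and 14700. SLC8A1, the sodium-calcium exchanger, ranged from 454 to 3370 (median 2620) against 99.8 to 165.7 in the 5 blood libraries (log2 difference 3.98, SE 0.54, adjusted p = 2.27e-05). SLN, the atrial regulator sarcolipin, was at 2.11 or less in all 11 libraries and did not pass the test (log2 difference -0.15, adjusted p = 0.903). The pacemaker channels HCN2 and HCN4 and the potassium channel KCNJ2 were also not called.

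Genes of energy metabolism were mostly higher in lateral micro-EMB, by less than contractile genes. Of 24 fatty acid oxidation genes tested, 21 were called higher there (median 2.26). LPL, the lipase that frees fatty acids in capillaries, was at 55.5 to 510 in lateral libraries (median 224), and blood was at 3.3, 1.3, 3.05, 3.53 and 1.11 (log2 difference 6.71, SE 0.69, adjusted p = 1.77e-06). HADHA, a subunit of the mitochondrial trifunctional protein, ranged from 61.1 to 423 (median 201.6) against 23.4, 43.7, 40.1, 31.6 and 39.6 (2.67, SE 0.49, adjusted p = 0.000386). Both genes were free of overlap. Citric acid cycle genes had 16 of 24 called higher in lateral micro-EMB (median 1.65), and MDH2, mitochondrial malate dehydrogenase, ranged from 66.6 to 634 against 33.6, 57, 43.8, 35.1 and 42.3 in blood (2.88, SE 0.53, adjusted p = 0.000427). Without lateral libraries 2 and 3, 22 of 24 were called.

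Of 49 nuclear genes of oxidative phosphorylation tested, 29 were called higher in lateral micro-EMB and 2 higher in blood (median 1.39). Without lateral libraries 2 and 3 the count was 43, and the same number, 2, was called higher in blood. COX6A1 and COX8A were the 2 called higher in blood, and both are forms of cytochrome oxidase subunits for which a muscle form exists. COX6A1 was at 4.2 to 11.7 in lateral libraries and at 13.5, 20.2, 27.7, 37.2 and 17.8 in blood (log2 difference -1.86, SE 0.38, adjusted p = 0.00114). COX8A was at 3 to 27.6 and at 34.4, 36.3, 39.4, 45.2 and 27.2, where lateral library 5 reached the lowest blood library. All 13 protein genes of mitochondrial DNA were called higher in lateral micro-EMB, with log2 differences between 2.26 and 2.96. They held 2.15 to 5.44% of the counts of lateral libraries and 0.527 to 0.774% of those of blood libraries. COX1, the catalytic subunit of cytochrome oxidase, was at 3120 to 22200 in lateral libraries (median 7940) and at 1660, 1580, 1860, 1670 and 1810 in blood (2.60, SE 0.58, adjusted p = 0.0023). The blood libraries were within a narrow range and the lateral libraries were not.

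**Figure D2:**
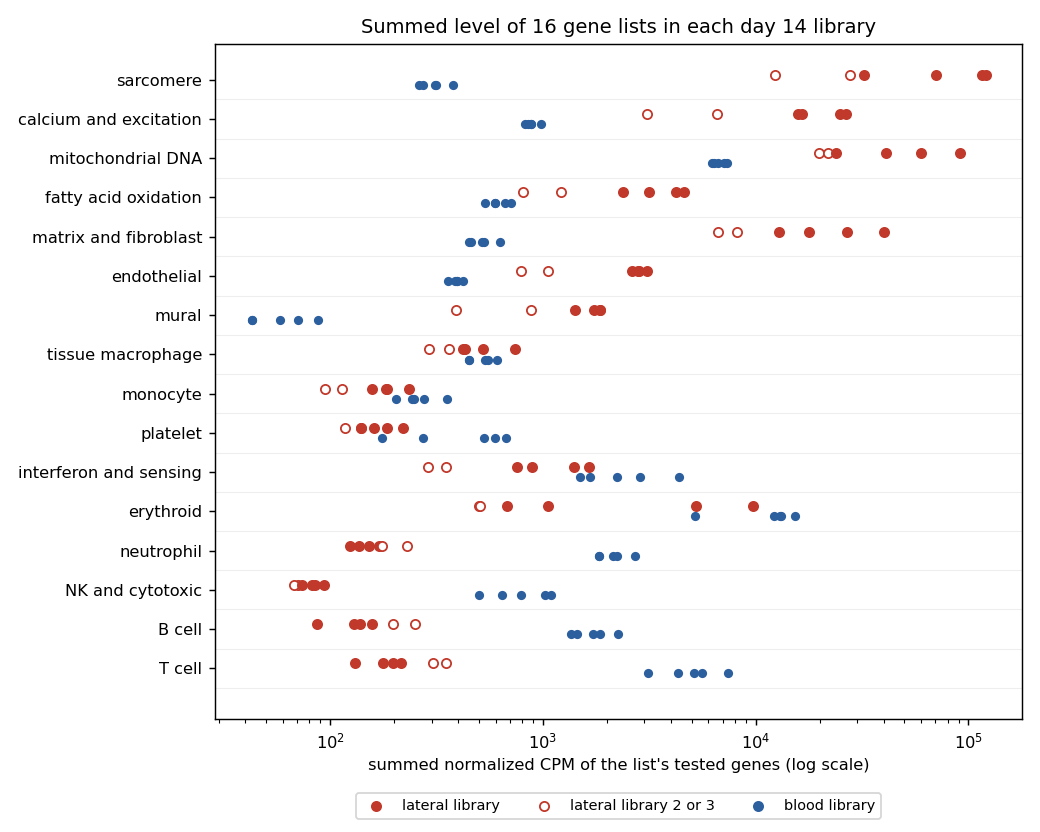
Each point is the summed normalized CPM, on a log axis, of the tested genes of 1 list in 1 of the 11 day 14 libraries. Filled red points are lateral libraries, open red points lateral libraries 2 and 3, and blue points blood libraries. Sarcomere sums ran from 12290 to 120700 in lateral libraries and from 262.6 to 376.6 in blood, T cell sums from 130.8 to 351.3 and from 3122 to 7438, and the erythroid sums of the 2 tissues overlapped.

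Many enzymes and cytoskeletal proteins exist in a muscle form and a form of other cells, made from separate genes. In 16 of 24 listed pairs both forms were tested. The muscle form was called higher in lateral micro-EMB in 15, the other form higher in blood in 11, and both in 10. The log2 ratio of the forms within a library, which does not depend on library scaling, was higher in every lateral library than in every blood library in 14 pairs. Creatine kinase had the widest shift. CKM, the muscle form, was at 242 to 2710 in lateral libraries (median 1020) and at 2.48, 1.11, 2.8, 5.12 and 0.554 in blood. CKB was at 3.97 to 8.11 in lateral libraries and at 26.7 and 51.5 in blood libraries 1 and 2 and 98.6 or more in the other 3. Their log2 ratio lay between 5.65 and 8.92 in lateral libraries and between -7.56 and -3.36 in blood, a mean shift of 12.55. The sarcomeric ACTC1 against the cytoplasmic ACTB shifted by 12.2, the calcium-binding S100A1 against S100A4 by 9.26, the Z-disc ACTN2 against ACTN1 by 8.93 and the enolases ENO3 against ENO1 by 8.78. The calcium pumps also traded places: ATP2A2, the pump of the cardiac sarcoplasmic reticulum, differed by 3.36 (SE 0.56, adjusted p = 0.000176), and ATP2A3, the pump of blood cells, by -3.49 (SE 0.31, adjusted p = 5.58e-07).

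In 4 pairs whose ratio did not overlap between tissues, the call of 1 form was lost when single libraries were left out. LDHB, the heart form of lactate dehydrogenase, was called higher in lateral micro-EMB (log2 difference 2.01, adjusted p = 0.0364), and its call was lost when blood library 1, 2, 4 or 6 or lateral library 1 or 5 was left out (adjusted p = 0.0621 to 0.121) and with the animal as a replicate block (1.98, adjusted p = 0.079). LDHA was called higher in blood (-2.3, SE 0.38, adjusted p = 0.000139), and the ratio of the pair did not overlap between tissues. HK2, the hexokinase of muscle, was called at 0.96 (adjusted p = 0.046), and its call was lost without lateral libraries 2 and 3 (0.78, adjusted p = 0.0933), in 9 of 11 omissions of a single library (adjusted p = 0.061 to 0.158) and with the animal as a replicate block (1.01, adjusted p = 0.0549). Only the omission of lateral library 1 or 2 kept it. COX6A2 lost its call when blood library 1, 4, 5 or 6 or lateral library 1 or 5 was left out (adjusted p = 0.0501 to 0.0752), and SLC25A5 when blood library 6 was (adjusted p = 0.0583). The 2 pairs that overlapped were the glycogen phosphorylases and the fatty acid binding proteins. PYGM, the muscle glycogen phosphorylase, was at 68.4 to 450 in lateral libraries and at 295, 388, 260, 215.1 and 253 in blood, which is no separation (log2 difference -0.06, SE 0.43, adjusted p = 0.935). FABP5, a form found in endothelium and fat, was called higher in lateral micro-EMB like FABP3, the heart form, with log2 differences of 5.49 (SE 0.55) and 4 (SE 0.62).

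**Figure D3:**
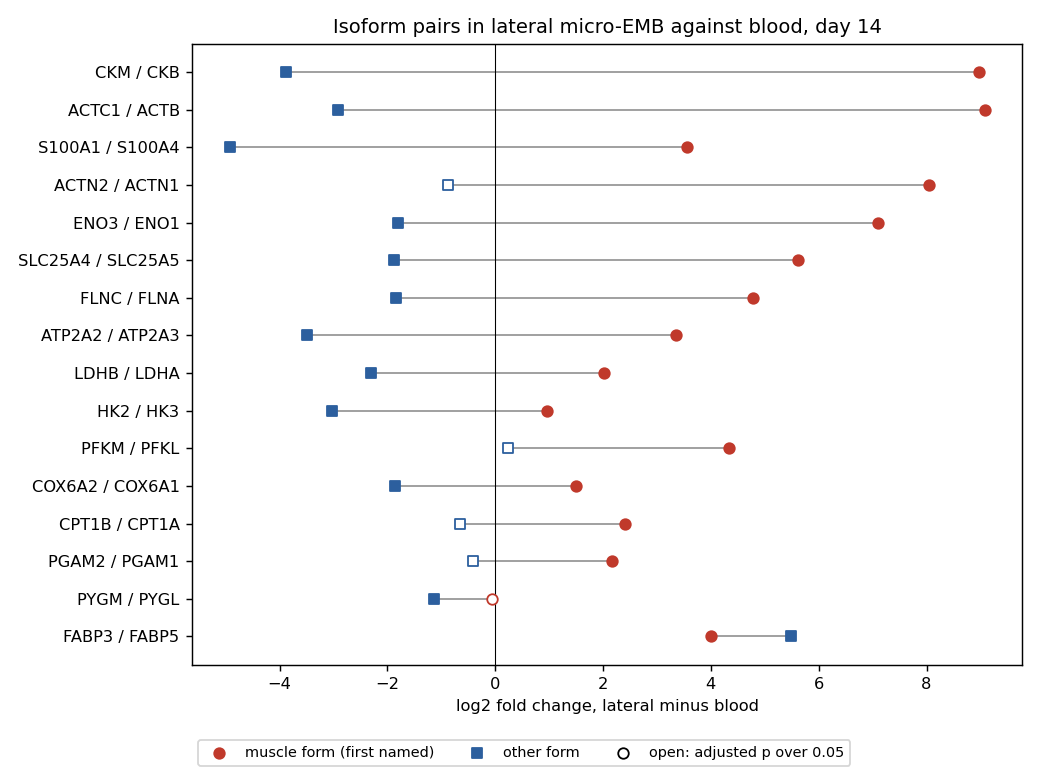
Each line joins the log2 fold changes, lateral minus blood, of the muscle form (red circle) and the other form (blue square) of 1 of 16 pairs, ordered by the shift of their ratio, and open symbols had an adjusted p over 0.05. In the top line CKM lies at 8.97 and CKB at -3.89, and in the lowest line FABP5 lies to the right of FABP3.

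Of 31 matrix and fibroblast genes tested, 29 were called higher in lateral micro-EMB (median 5.58). COL1A1, the main fibrillar collagen chain, was at 745 to 8990 in lateral libraries (median 1970) and at 2.2, 8.14, 2.54, 4.59 and 5.54 in blood (log2 difference 9.52, SE 0.89, adjusted p = 7.8e-07). COL3A1 differed by 9.44 (SE 0.79) and COL4A1, a chain of basement membrane, by 9.34 (SE 0.70). For COL1A1 and COL3A1 the highest lateral libraries were 1 and 6, at 8990 and 5340 and at 8020 and 4740, while library 3 was lowest. SERPINH1, the collagen chaperone on chromosome 9 (9782939 to 9794485, Sscrofa11.1), was at 66.5 to 348 in lateral libraries and had 8 counts in all 5 blood libraries together (9.65, SE 0.72, adjusted p = 1.29e-07). VCAN, a proteoglycan that monocytes also make, did not differ beyond the spread. It was at 96.5 to 304 in lateral libraries and at 130, 174, 212.3, 207.2 and 199 in blood (-0.07, SE 0.35, adjusted p = 0.9). TNC was the other gene not called.

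Endothelial genes were called higher in lateral micro-EMB in 16 of 19 (median 3.37) and mural genes in 11 of 12 (median 4.55). FLT1, a receptor for vascular endothelial growth factor, was at 105 to 333 in lateral libraries (median 262) and at 29.4, 19.8, 23, 37.2 and 19.9 in blood (log2 difference 3.18, SE 0.39, adjusted p = 9.04e-06). RGS5, a marker of pericytes, was at 77.7 to 391.8 (median 279) against 3.03, 0.185, 4.49, 9.1 and 0.664 (6.15, SE 0.79, adjusted p = 1.33e-05). Neither gene overlapped between tissues. PECAM1, which leukocytes and platelets also carry, was at 121.8 to 576 in lateral libraries and at 119.4, 147.1, 185.6, 149.4 and 177.2 in blood (1.25, SE 0.39, adjusted p = 0.0232), and its call was lost when blood library 1, 2, 5 or 6 or lateral library 5 was left out (adjusted p = 0.0536 to 0.0975). TAGLN, a smooth muscle gene, was the mural gene not called (1.60, adjusted p = 0.0554). It was called without lateral libraries 2 and 3 (1.91, adjusted p = 0.0207) and with the animal as a replicate block (2.23, adjusted p = 0.00579).

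Nerve and fat markers were scarce and uneven. Of 8 tested, CDH19 of Schwann cells and ADIPOQ of fat cells were called higher in lateral micro-EMB. CDH19 was at 6.77 to 48.1 in lateral libraries (log2 difference 2.75, SE 0.60, adjusted p = 0.00187). ADIPOQ was at 157.8 in lateral library 6 and at 4.91 or less in the other 5, against 0.332 to 4.13 in blood. The fat droplet gene PLIN1 had the same pattern, at 58.3 in lateral library 6 and 0.559 to 6.89 in the other 5. PLIN1 was not called (2.56, adjusted p = 0.0537), but was called without lateral libraries 2 and 3 (2.91, adjusted p = 0.0387). The log2 difference of ADIPOQ was 3.97 (SE 1.43, adjusted p = 0.046), and its call was lost when any 1 blood library was left out (lowest adjusted p = 0.0512). Without lateral library 6 it was 0.29 (adjusted p = 0.853), and with the animal as a replicate block it was 2.57 (adjusted p = 0.355).

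Markers of tissue macrophages split. Of 14 tested, 6 were called higher in lateral micro-EMB and 1 higher in blood, and the median was 0.97. C1QB, a chain of the complement starter C1q, was at 11.6 to 56.7 in lateral libraries (median 32.6) and at 0.825, 0, 0.593, 4.86 and 0.111 in blood (log2 difference 4.54, SE 0.82, adjusted p = 0.000359). C1QA, C1QC, the mannose receptor MRC1 (1.83, SE 0.34), the scavenger receptor STAB1 (2.12, SE 0.45) and the phagocytic receptor MERTK (1.21, SE 0.30) were called with it, and in all 6 every lateral library was above every blood library. F13A1, coagulation factor XIII, which monocytes and platelets make as well, was called higher in blood, at 122.4, 178.2, 388, 285 and 411 against 13.1 to 54 (-2.98, SE 0.42, adjusted p = 3.16e-05). CD163 was at 11.5 to 40.7 in lateral libraries and 5.78 to 21.8 in blood, which overlapped (0.64, SE 0.44, adjusted p = 0.338).

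Genes of the natriuretic and stress response had 5 of 8 called higher in lateral micro-EMB (median 3.09). NPPB, the B-type natriuretic peptide made by strained ventricle, was the least even of them. Lateral libraries 1 to 6 were at 46.1, 36.5, 7.29, 160, 4.69 and 0.334, and blood at 1.38, 0, 1.02, 1.77 and 0.997 (log2 difference 5.30, SE 1.15, adjusted p = 0.00178). Libraries 4 and 5 of the same animal differed from 160 to 4.69, and library 6 lay within the blood range. XIRP1, an intercalated disc protein, separated fully at 67.1 to 723 against 0.554 to 3.27 (7.86, SE 0.72, adjusted p = 6.74e-07).

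Transcription factors followed the tissue they are known for. Of 20 heart factors tested, 15 were called higher in lateral micro-EMB (median 4.44) and none higher in blood. GATA4, which opens the cardiac programme, was at 51.1 to 306 in lateral libraries (median 207.3) and at 6.6, 0.185, 4.15, 11.3 and 3.32 in blood (log2 difference 5.18, SE 0.71, adjusted p = 2.58e-05). MYOCD, the coactivator myocardin, differed by 5.50 (SE 0.60, adjusted p = 3.41e-06) and ESRRG, a nuclear receptor of oxidative muscle, by 3.79 (SE 0.59, adjusted p = 8.44e-05). The widely used factors SRF, MEF2A, MEF2C, MEF2D and ESRRA were not called, although MEF2C was without lateral libraries 2 and 3 (1.01, adjusted p = 0.00144). Of 23 blood factors tested, 17 were called higher in blood (median -1.95) and none higher in lateral micro-EMB. IKZF1, the lymphoid factor Ikaros, was at 1200, 1590, 955, 723 and 1090 in blood and 19.8 to 57.2 in lateral libraries (-4.83, SE 0.39, adjusted p = 2.82e-07). SPI1, which encodes the myeloid factor PU.1, was at 188, 272, 167.2, 145.4 and 165.9 against 8.82 to 22.9 (-3.71, SE 0.34, adjusted p = 7.55e-07), and RUNX1 differed by -3.29 (SE 0.39, adjusted p = 6.19e-06). The red cell factors GATA1 and KLF1 were not called (-0.97, adjusted p = 0.0905, and -0.86, adjusted p = 0.643), and both were at 11 or less in every library.

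Short binding motifs of such factors were looked up, on both strands, in the window from 250 bases before to 50 bases after the RefSeq gene start (Sscrofa11.1), which could be read for 12191 of 13223 tested genes with a symbol. The PU.1 motif GAGGAAGT stood in 4.14% of the windows of genes called higher in blood, 1.72% of those called higher in lateral micro-EMB and 2.22% of all. The general ETS core ACTTCC, which lies inside the reverse of the PU.1 motif, stood in 29.2%, 16.3% and 23.2%, and the RUNX motif TGTGGTT in 4.81%, 3.09% and 3.67%. In the other direction, the MEF2 motif TAAAAATA stood in 2.74% of the windows of genes called higher in lateral micro-EMB, 1.53% of those called higher in blood and 1.91% of all, the TEAD motif CATTCC in 12.7%, 9.51% and 11.2%, and the motif of ERR receptors CAAGGTCA in 1.28%, 0.563% and 1.13%. For the GATA motif AGATAA the shares were 7.56%, 7.06% and 7.67%, in the same order. Of 20 erythroid genes with a window, 7 held the GATA motif, among them HBZ, called higher in lateral micro-EMB, and TFRC, not called. The CACCC motif CCACACCC stood in 3.58% of the windows of genes called higher in lateral micro-EMB, 4.14% of those called higher in blood and 3.17% of all, and the TATA motif TATAAA in 7.82%, 9.21% and 8.39%. These shares are descriptions of letters in a fixed window and show no binding.

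The 4 windows below belong to members with large differences that hold at least 1 of these motifs, with the motifs named here in capitals in lower-case sequence, 5′ to 3′ on the gene's strand. They are SLC8A1 of heart muscle (chr3:99823253-99823552, plus strand, with a TEAD and a MEF2 motif before the start, the latter beginning 69 bases before it), AHSP (chr3:17060294-17060593, minus strand, GATA at 80 bases) and SLC25A39 (chr12:18913011-18913310, plus strand, GATA at 48 bases) of red cells, and ITGB2 of leukocytes (chr13:207544059-207544358, minus strand, PU.1 at 38 bases). Other searched motifs in these windows are not marked: the TATA motif in SLC8A1, the TEAD motif in AHSP and the ETS and TATA motifs in SLC25A39. ITGB2 also holds the ETS core.
SLC8A1: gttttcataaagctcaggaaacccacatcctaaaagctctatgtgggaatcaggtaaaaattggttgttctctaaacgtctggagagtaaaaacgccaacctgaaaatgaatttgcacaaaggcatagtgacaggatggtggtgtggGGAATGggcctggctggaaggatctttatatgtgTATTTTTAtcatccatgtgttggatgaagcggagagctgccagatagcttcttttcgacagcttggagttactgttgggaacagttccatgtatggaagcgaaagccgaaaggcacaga
AHSP: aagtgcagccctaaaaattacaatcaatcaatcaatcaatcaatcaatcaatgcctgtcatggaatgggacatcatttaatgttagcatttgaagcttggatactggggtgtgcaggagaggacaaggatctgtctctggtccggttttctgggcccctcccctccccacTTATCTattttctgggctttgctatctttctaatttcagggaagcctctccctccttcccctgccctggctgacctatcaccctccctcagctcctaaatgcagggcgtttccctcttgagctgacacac
SLC25A39: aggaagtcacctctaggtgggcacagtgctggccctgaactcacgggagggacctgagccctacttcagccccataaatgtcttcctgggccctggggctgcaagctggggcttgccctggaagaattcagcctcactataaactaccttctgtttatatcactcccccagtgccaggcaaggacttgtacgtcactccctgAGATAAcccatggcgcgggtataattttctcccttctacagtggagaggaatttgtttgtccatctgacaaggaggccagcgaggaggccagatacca
ITGB2: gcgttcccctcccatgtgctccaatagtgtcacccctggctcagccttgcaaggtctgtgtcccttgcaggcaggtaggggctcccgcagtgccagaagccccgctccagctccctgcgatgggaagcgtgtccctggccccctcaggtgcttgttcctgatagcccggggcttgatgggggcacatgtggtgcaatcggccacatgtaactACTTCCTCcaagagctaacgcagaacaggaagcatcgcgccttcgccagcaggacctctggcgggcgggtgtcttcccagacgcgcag

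Lymphocyte genes were the most uniform group on the blood side. Of 22 T cell genes tested, 21 were called higher in blood (median -4.06), and in 21 every blood library was above every lateral library. LEF1, a factor of naive T cells, was at 796, 1090, 583, 389 and 824 in blood and at 6.43 to 25 in lateral libraries (log2 difference -5.39, SE 0.45, adjusted p = 3.33e-07). BCL11B, which keeps T cell identity, was at 843, 1100, 406, 285 and 599 against 4.75 to 34.5 (-5.20, SE 0.54, adjusted p = 1.88e-06). The highest lateral library was library 2 for LEF1 and library 3 for BCL11B, and neither reached the lowest blood library. Of 18 B cell genes, 16 were called higher in blood (median -3.88). PAX5, the master factor of B cells, was at 436, 535, 510, 391.5 and 657 in blood, at 77.3 and 63.6 in lateral libraries 2 and 3 and at 3.91 to 15 in the other 4 (-4.10, SE 0.68, adjusted p = 0.000169). Without those 2 libraries its difference was -5.87 (adjusted p = 3.77e-08). Of 15 NK and cytotoxic genes, 12 were called higher in blood (median -3.06), and the chemokine CCL5 was at 68.8, 116.4, 196, 196 and 97.2 against 1.68 to 6.57 (-4.87, SE 0.41, adjusted p = 3.11e-07).

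Neutrophil genes were called higher in blood in 12 of 18 (median -2.81). CSF3R, the receptor for granulocyte colony-stimulating factor, was at 314, 490, 281, 210.6 and 234 in blood, against 2.62 to 8.23 in lateral libraries (log2 difference -5.77, SE 0.40, adjusted p = 1.01e-07). No lateral library reached the lowest blood library. S100A8, usually a very abundant neutrophil transcript, was at 4.51 or less in all 11 libraries and was not called (-1.58, SE 1.23, adjusted p = 0.396). Of 8 monocyte genes, CD14, CD86, TLR2 and TLR4 were called higher in blood, with differences from -2.79 to -1.72, and the early-response factor NR4A1 higher in lateral micro-EMB, at 15.5 to 48.9 against 3.88 to 9.62 (2.32, SE 0.39, adjusted p = 0.000185). Of 13 platelet genes, 5 were called higher in blood. PPBP, the platelet chemokine precursor, was at 10.7, 17, 72.8, 53.7 and 78.9 in blood and at 1.11 to 1.88 in lateral libraries (-5.00, SE 0.52, adjusted p = 2.05e-06), and the low blood values were those of swine 5385. TUBB1, the platelet tubulin, showed the same order, with 29.2 and 50 in swine 5385 and 99.5 to 140 in the other 3 blood libraries. For both genes, animal and library number series cannot be told apart in blood. MMRN1, a multimerin of platelets and endothelium, was called higher in lateral micro-EMB (1.94, SE 0.60, adjusted p = 0.0202). Its call was lost without lateral libraries 2 and 3 (1.60, adjusted p = 0.0657) and when blood library 2, 4 or 6 was left out (adjusted p = 0.0566 to 0.0687).

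Receptors that guide leukocytes were called higher in blood in 12 of 14 (median -2.80). S1PR4, a lymphocyte receptor for sphingosine-1-phosphate, was at 87.5, 126.6, 83.1, 70.7 and 73.4 in blood and 0.556 to 1.55 in lateral libraries (log2 difference -6.32, SE 0.38, adjusted p = 4.59e-08). ACKR3, a scavenging receptor of vessels, was the only one called higher in lateral micro-EMB (1.64, SE 0.50, adjusted p = 0.0186), a call lost when blood library 1, 4 or 5 or lateral library 6 was left out (adjusted p = 0.0553 to 0.0649). Of 6 genes of the MHC class II pathway, 5 were called higher in blood (median -1.66), and SLA-DQB1 was not called. The listed chains SLA-DRA, SLA-DRB1, SLA-DQA1 and SLA-DOB had no identifier and were not tested. CD74, the invariant chain, was at 854, 1160, 988, 949 and 997 against a median of 500 and a highest value of 656 in lateral libraries (-1.17, SE 0.41, adjusted p = 0.0404), and its call was lost when any blood library or lateral library 3 or 6 was left out (adjusted p = 0.0614 to 0.116). Of 22 interferon and pathogen-sensing genes, 9 were called higher in blood and TLR5 higher in lateral micro-EMB (median -1.10). IRF7, the amplifier of interferon production, was at 190, 227, 47.7, 48.2 and 77.2 in blood and 1.91 to 29.6 in lateral libraries (-3.16, SE 0.66, adjusted p = 0.00134). The antiviral gene MX1 was at 426, 687, 180, 146.5 and 270, against 63.3, 18.6, 9.05 and 43.1 in lateral libraries 1, 2, 3 and 6 and 119.5 or more in libraries 4 and 5 (-2.29, SE 0.62, adjusted p = 0.00957). In both tissues the 2 highest values of each of these genes were those of swine 5385. With 3 animals this order was not tested, and in blood it cannot be told apart from the library number series. Lateral libraries 4 and 5, both of swine 5385, had numbers of different series.

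Red cell genes divided into those that kept to blood and HBB, which did not. Of 22 erythroid genes tested, 11 were called higher in blood and 3 higher in lateral micro-EMB (median -2). AHSP, the chaperone of free alpha-globin, was at 230, 297, 211.6, 204.6 and 89.3 in blood and at 0 to 0.743 in lateral libraries (log2 difference -9.15, SE 0.63, adjusted p = 8.63e-08). SLC25A39, a mitochondrial carrier, was at 538, 627, 492, 465 and 353 against 3.87 to 13.7 (-5.86, SE 0.41, adjusted p = 1.03e-07), and the red cell anion exchanger SLC4A1 at 96.5, 87.7, 70.6, 60.4 and 70.2 against 0.445 to 7.93 (-4.27, SE 0.56, adjusted p = 1.61e-05). Those called the other way included the embryonic globin HBZ (2, SE 0.46) and the spectrin SPTB (2.29, SE 0.42), which muscle also makes, and neither overlapped between tissues.

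HBB, the beta-globin of adult red cells (chromosome 9, 4800683 to 4801941, Sscrofa11.1), was at 10300, 13000, 11200, 11400 and 3630 in blood. Lateral libraries 4 and 5, both of swine 5385, were at 4350 and 8640, and the other 4 were at 50.5, 83, 32.2 and 44.4. The 2 lateral libraries of swine 5385 thus lay above blood library 6, of swine 1644, and below the other 4 blood libraries. The latter included both blood libraries of swine 5385, at 10300 and 13000. HBB was not called in the comparison of all libraries (log2 difference -2.17, SE 1.20, adjusted p = 0.209). With the animal as a replicate block it was called (-5.21, adjusted p = 0.00385), and it was called with a difference of -7.19 without those 2 libraries (adjusted p = 1.09e-05) and of -3.44 without lateral library 5 (adjusted p = 0.0421). Other genes of blood cells were checked in these 2 libraries. Of 93 genes of the erythroid, leukocyte, platelet and chemokine receptor lists called higher in blood, 15 were above the highest of the other 4 lateral libraries in library 4 or 5, by at most 2.59 times, and 5 in both (EPB41, ITGAM, JCHAIN, NKG7 and S1PR1, named after their values were seen). Against lateral libraries 1 and 6 alone, without libraries 2 and 3, the counts were 39 and 6, by at most 3.78 times among genes with a count in those libraries. The same shares over all genes tested were not counted, so these counts have no baseline and do not show whether blood genes stand out. AHSP was at 0 and 0.521, SLC4A1 at 4.19 and 1.04, SLC25A39 at 13.7 and 9.38, and CSF3R at 5.03 and 5.47. Over all times and with TMM over all libraries that met the criteria, the 16 heart libraries of swine 5385 had HBB at 671 to 9440, and the 29 of the other 2 animals at 9.21 to 91.4. Of 18441 genes compared over these 45 libraries, HBB was the only one for which every library of swine 5385 was above every library of the others, and no gene had this pattern for either of the other 2 animals. These values are a description across 3 animals, with no test.

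**Figure D4:**
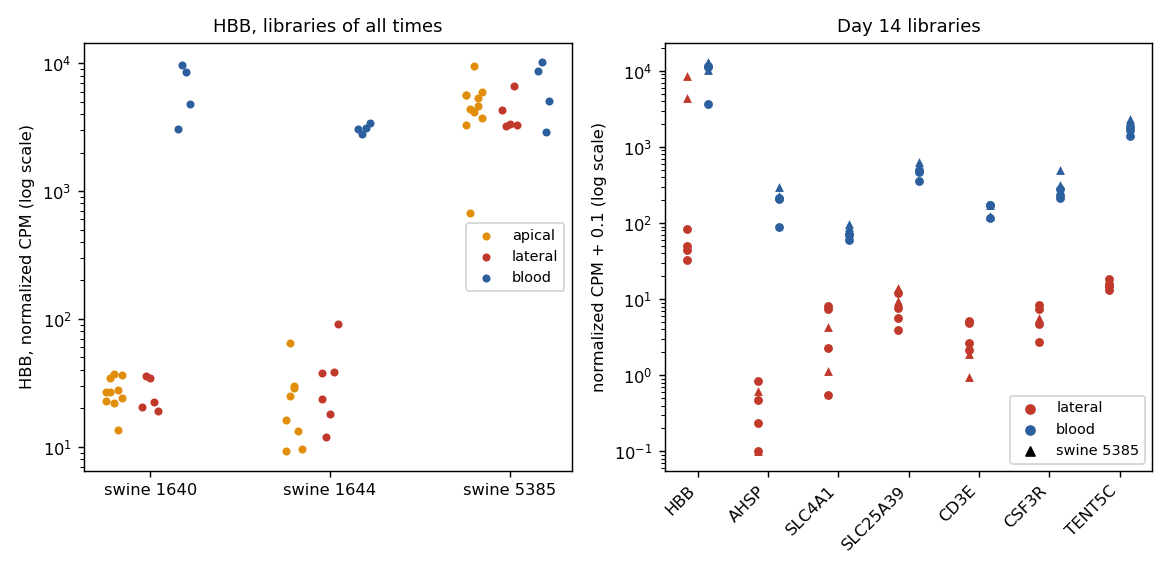
Left, HBB in normalized CPM on a log axis for every library of the series that met the criteria, by animal, with apical micro-EMB in orange, lateral micro-EMB in red and blood in blue. Right, 7 genes in the 11 day 14 libraries, in normalized CPM plus 0.1 on a log axis, with triangles for swine 5385. On the left, HBB of the heart libraries of swine 5385 lies at 671 to 9440, and all but the lowest lie within the range of blood. On the right, AHSP, SLC4A1, SLC25A39, CD3E, CSF3R and TENT5C of its day 14 lateral libraries lie below blood.

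The 8 smallest p-values with full separation on the lateral side were those of SERPINH1, COL4A1, the thin filament gene LMOD2 (8.84, SE 0.67), the endothelial MMRN2 (5.93, SE 0.49), COL6A1, COL3A1, TNNT2 and the cyclin CCND1 (6.24, SE 0.53). On the blood side they were those of TENT5C, UCP2, S1PR4, the GTPase RAC2 (-5.28, SE 0.33), the integrin ITGB7 (-5.43, SE 0.34), MYO1G (-5.26, SE 0.33), SASH3 (-5.28, SE 0.34) and ARHGAP30 (-4.97, SE 0.33). TENT5C, a poly(A) polymerase of blood cells, was at 2180, 2300, 1840, 1390 and 1670 in blood and at 13 to 18.4 in lateral libraries (log2 difference -6.89, SE 0.40, adjusted p = 4.16e-08). UCP2, a mitochondrial carrier of leukocytes, was at 335, 423, 382, 321 and 318 against 4.47 to 8.59 (-5.67, SE 0.33, adjusted p = 4.16e-08). The lateral libraries were within a narrow range for both genes.

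By share of counts, MYH6 was the first named gene in lateral micro-EMB, with 2.58% ± 1.33 (SD, n = 6) against 0.00275% ± 0.0011 (SD, n = 5) in blood, and COX1 followed with 0.86% ± 0.329 against 0.178% ± 0.0285. RYR2 held 0.631% ± 0.272 and ND5, a complex I subunit of mitochondrial DNA, 0.574% ± 0.2. In blood, HBB held 1.01% ± 0.376, the growth-related gene TPT1 0.417% ± 0.161 and ACTB 0.354% ± 0.126. The most counted feature of both tissues was ENSSSCG00000044834, which has no symbol in the table used, with 5.19% ± 3.06 in lateral micro-EMB and 6.66% ± 3.72 in blood.

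Genes often used as references were not level between the tissues. Of 12 tested, 5 were called higher in blood and GAPDH higher in lateral micro-EMB (median -0.48). ACTB was at 1950, 2840, 4330, 3640 and 4130 in blood and 140 to 709 in lateral libraries (log2 difference -2.92, SE 0.48, adjusted p = 0.000137). GAPDH was at 13.7 to 230 in lateral libraries and at 18.7, 23.9, 26.3, 31.6 and 21.2 in blood (2.04, SE 0.57, adjusted p = 0.0111), and lateral library 2 lay below all blood libraries. GUSB, RPL4 and YWHAZ were also called higher in blood.

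The common leukocyte antigen PTPRC was at 1910, 2660, 2960, 2200 and 3000 in blood and at 82 to 131.3 in lateral libraries (log2 difference -4.50, SE 0.38, adjusted p = 3.3e-07). Summed levels of the T cell list were 3122 to 7438 in blood and 130.8 to 351.3 in lateral libraries, with the 2 highest lateral sums in libraries 2 and 3. Those 2 libraries also had the lowest sums of the sarcomere, calcium, endothelial and mural lists among lateral libraries. What share of these lateral values came from blood inside the biopsies was not tested.

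The same contrast was available at day 2 from 4 lateral and 4 blood libraries of the same animals that met the criteria. Of the 5610 genes called at day 14 and tested at day 2, 5487 had the same sign at day 2 and 3887 were called in the same direction, and 1 was called in the opposite direction. The difference between the 2 contrasts was tested directly. No gene of 20082 was called by edgeR (0%), with 2501 genes at an unadjusted p under 0.05 and a smallest adjusted p of 0.397. DESeq2 called 1 gene, ENSSSCG00000041619 (log2 difference of the contrasts 8.88, adjusted p = 0.00533), with 4355 at an unadjusted p under 0.05, and limma-voom called 0 with 3254. With 4 libraries of each tissue at day 2, the lack of calls does not show that the contrasts were equal on both days. List medians at day 2 were 8.02 for sarcomere, 5.11 for matrix, -5.03 for T cell and -4 for B cell genes, against 7.38, 5.58, -4.06 and -3.88 at day 14. Nuclear oxidative phosphorylation genes had a median of 2.33 at day 2 and 1.39 at day 14, with 44 and 29 of 49 called higher in lateral micro-EMB. Without lateral libraries 2 and 3 the day 14 values were 1.79 and 43 of 49. At day 2, 0 of these genes were called higher in blood, against 2 at day 14. Those 2, COX6A1 and COX8A, had day 2 differences of -0.08 (adjusted p = 0.905) and -0.44 (adjusted p = 0.567). Of the other forms of the isoform pairs called higher in blood at day 14, ACTB, HK3, ATP2A3 and S100A4 were also called at day 2. CKB (-1.26, adjusted p = 0.0914), FLNA (-0.91, adjusted p = 0.108), ENO1 (-0.6, adjusted p = 0.195) and LDHA (-0.52, adjusted p = 0.352) were not. COX6A1, PYGL (0.01, adjusted p = 0.979) and SLC25A5 (0.6, adjusted p = 0.454) were not called at day 2 either. No change between days was called for these forms. The fat genes ADIPOQ and PLIN1 had differences of -1.50 and -1.14 at day 2 and 3.97 and 2.56 at day 14, and neither change passed the test of the difference between days.

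**Figure D5:**
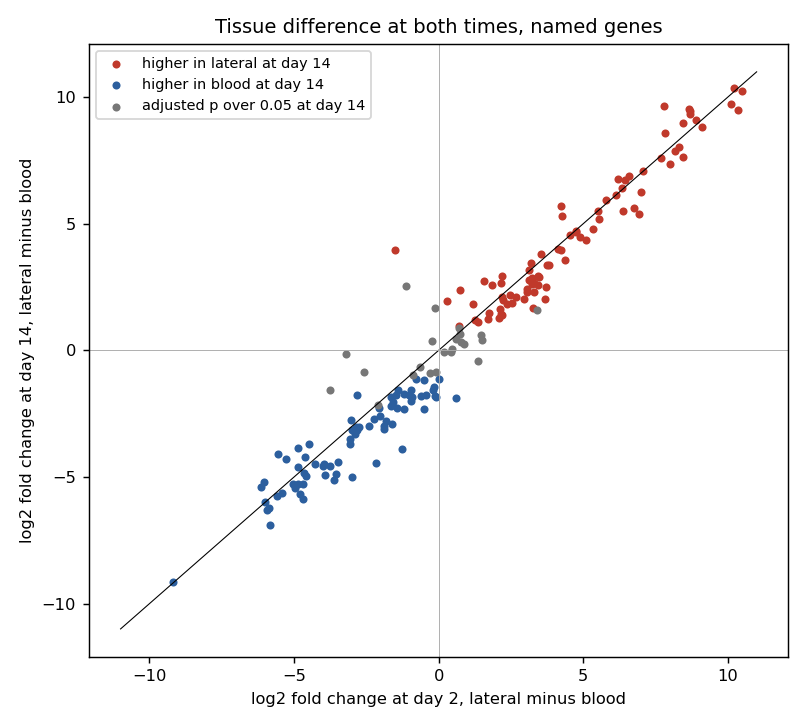
Each point is 1 of the named genes, with the log2 fold change of lateral minus blood at day 2 on the x axis and at day 14 on the y axis, coloured by its call at day 14. The line marks equal values: most points lie along it, and ADIPOQ, at -1.50 and 3.97, lies farthest above it.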

How the data were processed

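RNA-seq of lateral micro-EMB and whole blood was analysed from gene counts. The authors extracted total RNA, made libraries with a SMARTer Pico kit, aligned reads (STAR, Sscrofa11.1) and assigned them to genes by featureCounts without regard to strand. The authors deposited raw counts for every library. Tool versions were not given in the sources used here. Genes that overlap on opposite strands are therefore uncertain.

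Symbols came from a table of Ensembl identifiers, which named 15029 of 31907 genes and held 76.7% of the counts of the 11 libraries. A gene was tested where 3 or more of the 11 libraries reached a CPM of 1. Tests were made with edgeR 4.0.16 in R 4.3.3 (TMM, quasi-likelihood, tissue as the only term), and SE is the log2 fold change divided by the square root of F. DESeq2 1.42.0 and limma 3.58.1 were alternatives. The test was tried on simulated counts. Of 505 listed genes with an identifier, 49 fell under the filter, and 41 of these, CRYAB, LYZ and CD79A among them, were at 0 in all 11 libraries. In the ratio of 2 forms, 0.5 was added to each count. Named genes were, for each list, up to 4 with the highest level among those called and every one called against the rest, all isoform pairs, the 8 smallest p-values with full separation in each direction and the 10 most counted genes of each tissue. MYL4, SLN, PLIN1, VCAN, TAGLN, CD163, SRF, MEF2C, SPI1, GATA1, KLF1, S100A8, SLC4A1, CD3E, PTPRC, HBB at other times, the genes listed only as not called and the promoters printed were chosen after their values were seen. Some genes that the rule names are not reported here. Members and lists were chosen with earlier results of these data known.

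Libraries of the same swine number come from the same animal, so the number pairs the tissues. The correlation, over genes, of an animal's deviation from the tissue mean between lateral and blood was 0.289 for swine 1640, -0.209 for swine 1644 and 0.333 for swine 5385, and between different animals it ran from -0.437 to 0.449.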

Additional observations from a re-analysis of the deposited data

Results flagged for a closer look

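For each of 73 genes, the lateral libraries and the blood libraries were each taken as a separate group. Of all these groups, 8 had a library far from the others of its group, where chance gives about 1 in 20. The share of groups flagged was close to that rate, so as a set the 8 do not stand out from chance. ADIPOQ was at 157.8 normalized CPM in lateral library 6 and 0 to 4.91 in the other 5. HBB was at 3630 in blood library 6, the only one of swine 1644, and 10300 to 13000 in the other 4. In lateral library 4, CCL5 was at 1.68 (others 4.17 to 6.57) and TUBB1 at 0.279 (others 3.39 to 8.07). MMRN1 was at 2.6 in lateral library 5 (others 8.66 to 15.4). In blood library 1, ACTC1 was at 3.58 (others 0.332 to 0.678) and SERPINH1 at 0.825 (others 0.0847 to 0.185), and PDGFRB was at 7.77 in blood library 5 (others 0.925 to 1.93). The causes were not tested.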

How the results depend on the processing

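Without the 2 library criteria (12 libraries), 2044 genes were higher in lateral micro-EMB and 1232 in blood. With totals only as the scaling, 3839 were higher in blood, and against a log2 fold change of 1, 1111 were. Alternatives without lateral libraries 2 and 3, and without lateral libraries 4 and 5 (3937 and 2373), were added after seeing the data. Leaving out 1 library at a time gave 2570 to 3499 genes higher in lateral micro-EMB and 1982 to 2510 higher in blood, and 0 to 0 for the difference between day 14 and day 2, where DESeq2 called 1. The animal as a replicate block gave 2973 and 2432 and 0 for the difference between days, changed the calls of ADIPOQ, ATP5F1A, HBB, HK2, LDHB, LYVE1, NDUFS1 and TAGLN among the named genes and changed no other, and counts summed per animal, with 3 against 3, gave 2733 and 2208. Every other alternative stayed within 1.5 times the counts reported.

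Of the named genes called, 40 lost their call under at least 1 of 27 alternatives, all others kept it under all 27, and 0 reversed. The sign of every list's median was the same under the 4 scalings.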
